A study of Mus musculus with 4 samples.

Results

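Mitochondrial ribosomal proteins are encoded in the nucleus, and their transcripts are described here in the mouse heart. The members were all gene symbols made of Mrpl or Mrps, a number and at most 1 further letter. There were 76 of them among the 23420 genes counted, 47 named for the large subunit (Mrpl) and 29 for the small subunit (Mrps). Poly(A)+ RNA was sequenced in 4 libraries from the apex of the ventricles. All 4 carried the same labels, namely wild-type C57BL/6J mouse, male, 12 weeks old, with no treatment or transgene named. They formed a single group, so the comparisons are between libraries and between members.

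The mitochondrial ribosome translates the few mRNAs of the mitochondrial genome, whose products are core subunits of the respiratory chain and of ATP synthase. Its RNA comes from mitochondrial DNA, whereas its proteins are made in the cytosol and imported. Many have a counterpart in bacterial ribosomes and others were added during the evolution of mitochondria. The heart depends on respiration, and inherited defects in several of these proteins cause cardiomyopathy in people.

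Depth ranged from 10523709 to 15359296 gene counts per library. The member counts ranged from 59 to 2981 per library, so counting error alone gave each member a coefficient of variation (CV, the SD over the mean) with a median of 5.09%. All 76 members had a mean of at least 1 CPM (counts per 1000000 gene counts), the minimum for testing. All 5 cardiomyocyte markers were abundant, with a summed level of 78784 to 89594 CPM. The atrial markers Myl7 and Sln had 0 to 7 counts in every library. Xist, transcribed from the inactive X chromosome, had 5, 1897, 1806 and 19 counts in libraries 1 to 4, and the Y-linked Ddx3y had 341, 0, 1 and 437. Libraries 2 and 3 therefore went against their male label, and the number of members called is also given for libraries 1 and 4 alone. Nothing in the labels says that each library came from a separate animal, and p-values measure the spread between these libraries, which may be technical.

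To show the DNA in front of these genes, 100 bases before the RefSeq start are given for the 4 members with the most counts per kilobase of exon and for Mrpl42, the member with the most counts (GRCm38.p6, on the strand of the gene). Capitals mark the letters of the motifs described at the end, on either strand. Mrpl12 lies at chr11:120484537-120484636 (plus strand), Mrps21 at chr3:95871515-95871614 (minus strand), Mrpl2 at chr17:46646121-46646220 (plus strand), Mrpl34 at chr8:71464826-71464925 (plus strand) and Mrpl42 at chr10:95501950-95502049 (minus strand).
Mrpl12: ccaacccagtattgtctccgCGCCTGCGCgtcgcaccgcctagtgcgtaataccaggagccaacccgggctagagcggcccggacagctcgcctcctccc
Mrps21: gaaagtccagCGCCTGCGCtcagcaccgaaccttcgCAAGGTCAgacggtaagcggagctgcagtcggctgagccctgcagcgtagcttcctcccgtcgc
Mrpl2: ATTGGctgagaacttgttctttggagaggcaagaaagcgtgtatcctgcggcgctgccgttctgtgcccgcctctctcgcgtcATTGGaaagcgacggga
Mrpl34: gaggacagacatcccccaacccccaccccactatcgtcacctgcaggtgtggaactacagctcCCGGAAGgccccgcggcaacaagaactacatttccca
Mrpl42: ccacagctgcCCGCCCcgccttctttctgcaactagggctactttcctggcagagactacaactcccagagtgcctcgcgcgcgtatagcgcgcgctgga
The capitals are letters of the NRF1 motif for Mrpl12, of NRF1 and then the ERR motif for Mrps21, of the CCAAT box at both ends for Mrpl2, of the ETS motif for Mrpl34 and of the SP1 motif for Mrpl42.

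The members together took 3032, 2940.1, 2893 and 3068 CPM in libraries 1 to 4, a mean of 2983 ± 81.0 CPM (SD, n = 4) or 0.298 ± 0.0081% of all gene counts. Libraries 2 and 3 were both below libraries 1 and 4, with a CV over the 4 of 2.71%. In bulk tissue, a lower level cannot be told apart from fewer cells of a type. Members named for the large subunit summed to 2029 ± 58.8 CPM and those named for the small subunit to 954 ± 22.9 CPM. The median member had a mean of 29.4 CPM, against 16.6 CPM for the 12360 genes tested. At least 10 CPM was reached by 71 members and at least 100 CPM by 4, which were Mrpl42, Mrpl12, Mrpl4 and Mrpl51. The 5 members with the most counts held 21.9% of the summed level. Mrpl4 and Mrpl51, and the fifth, Mrpl30, are named by their counts after these were seen.

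**Figure D1:**
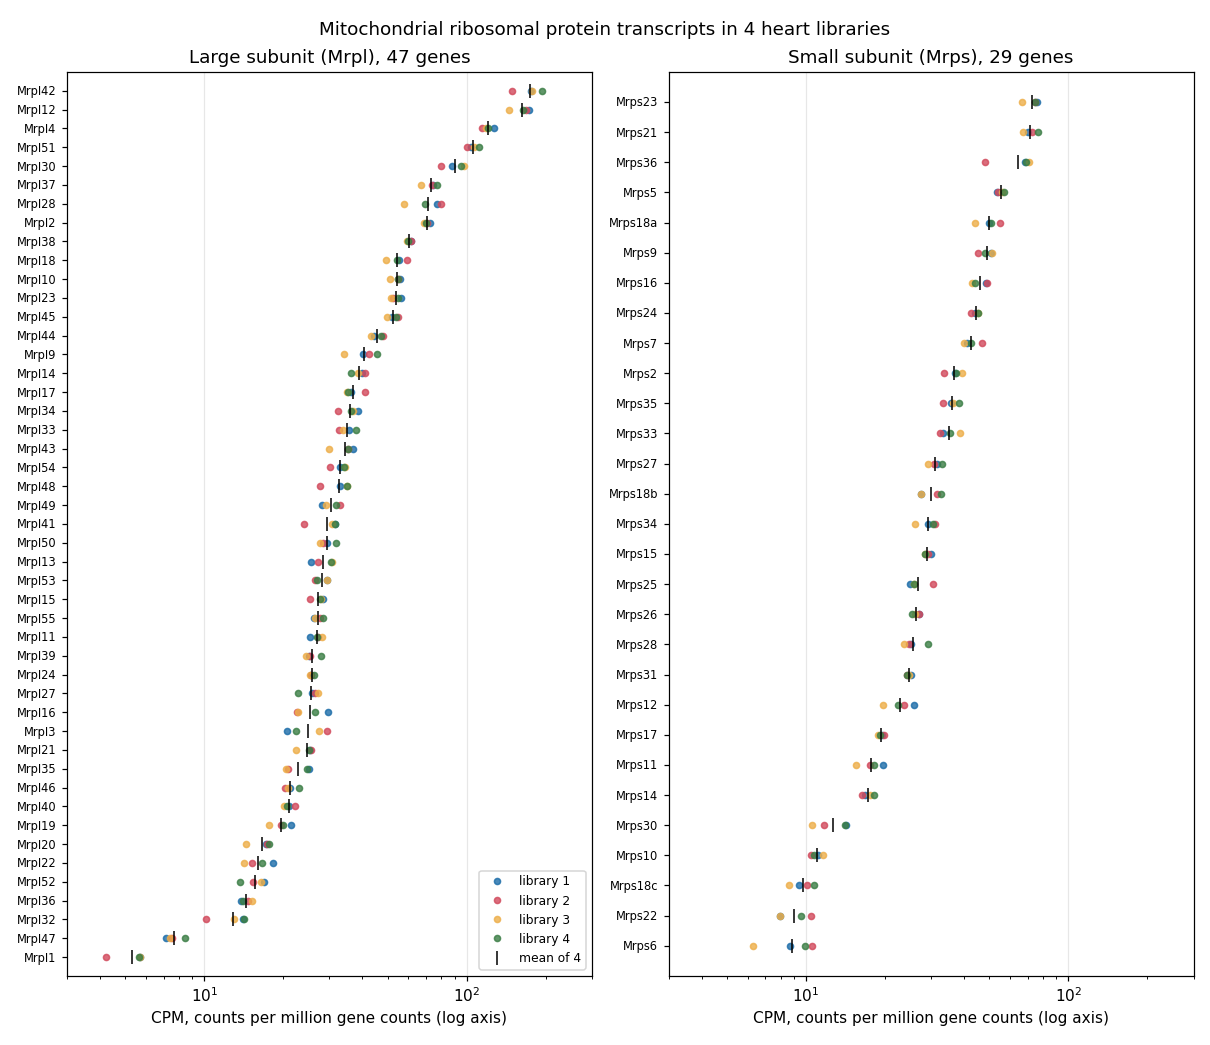
Each point is the level of a member in 1 library (CPM, log axis), with the 47 genes named for the large subunit on the left and the 29 named for the small subunit on the right, ordered by the mean of 4 libraries (black bar). Levels run from 5.32 CPM for Mrpl1 to 175 CPM for Mrpl42, and for most genes the 4 points lie close together against that range.

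Levels of different members were compared per kilobase of exon. The main length was the union of all annotated exons of a gene, which counts long minor isoforms in full. For 21 members it was over 2 times the exon length of the transcripts that the annotation pairs with RefSeq, and the medians over members were 2213.5 and 1253 bases. The shorter length was added after the data were seen, and levels are given by all exons unless the RefSeq-paired length is named. The highest 8 members under the 2 lengths had 4 in common, Mrpl12, Mrps21, Mrps36 and Mrpl42, and the lowest 8 also had 4 in common, Mrpl1, Mrpl47, Mrps30 and Mrpl32.

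Mrpl12, the stalk protein of the large subunit, which contacts translation factors, had the highest level per kilobase of all exons, 106 ± 8.05 CPM per kb (SD, n = 4) and 124 ± 9.37 by the RefSeq-paired length. Its counts were 173, 169, 145 and 164 CPM, lowest in library 3. Mrps21 of the small subunit was next at 96.9 ± 5.17 CPM per kb (146 ± 7.76 by the RefSeq-paired length), with 70.1, 72.8, 67.4 and 76.3 CPM. Mrpl12 and Mrps21 overlapped within 1 SD by the main length, though Mrpl12 was the higher in each library. By the RefSeq-paired length Mrps21 was the higher in each library, without overlap.

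Mrpl2, which lies near the peptidyl transferase centre, had 72.8, 70.5, 68.7 and 70.3 CPM and a level of 60.3 ± 1.44 CPM per kb. Mrpl34, a small conserved protein of the large subunit, had 38.6, 32.3, 36.8 and 36.2 CPM and a level of 59.3 ± 4.43 CPM per kb. These neighbours in the order did not differ beyond their spread. Mrpl28 followed at 51.5 ± 7.19, Mrps36 at 50.4 ± 8.36, Mrpl42 at 47.4 ± 5.01 and Mrps23 at 46.7 ± 2.73 CPM per kb, and each of these overlapped the next within 1 SD. Mrps36 carries a ribosomal symbol but is known as a subunit of the 2-oxoglutarate dehydrogenase complex of the citric acid cycle. By the RefSeq-paired length Mrpl42, a protein without a bacterial counterpart, stood above all other members at 257 ± 27.1 CPM per kb, since that length is 679 bases where the union is 3682.

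At the lower end was Mrpl1, the protein of the mobile L1 stalk on the exit side of the large subunit, with 5.69, 4.24, 5.70 and 5.66 CPM. Its level was 1.24 ± 0.168 CPM per kb and 1.28 ± 0.173 by the RefSeq-paired length, so both lengths placed it last. The lowest library rested on 59 counts. Mrpl47, at the exit tunnel, had 1.73 ± 0.13 CPM per kb (2.27 ± 0.17 by the RefSeq-paired length), and Mrps30 had 1.90 ± 0.271 (3.81 ± 0.544). Mrps30 is named for the small subunit but sits in the large subunit of the assembled ribosome. Mrps10 at 1.36 ± 0.0593 and Mrps17 at 2.97 ± 0.0678 CPM per kb were among the lowest only by the union of exons. By the RefSeq-paired length they had 9.28 ± 0.405 and 16.0 ± 0.364. The rest of the lowest 8 were Mrps22 at 2.25 ± 0.304, Mrpl32 at 2.57 ± 0.374 and Mrpl15 at 3.21 ± 0.163 CPM per kb.

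**Figure D2:**
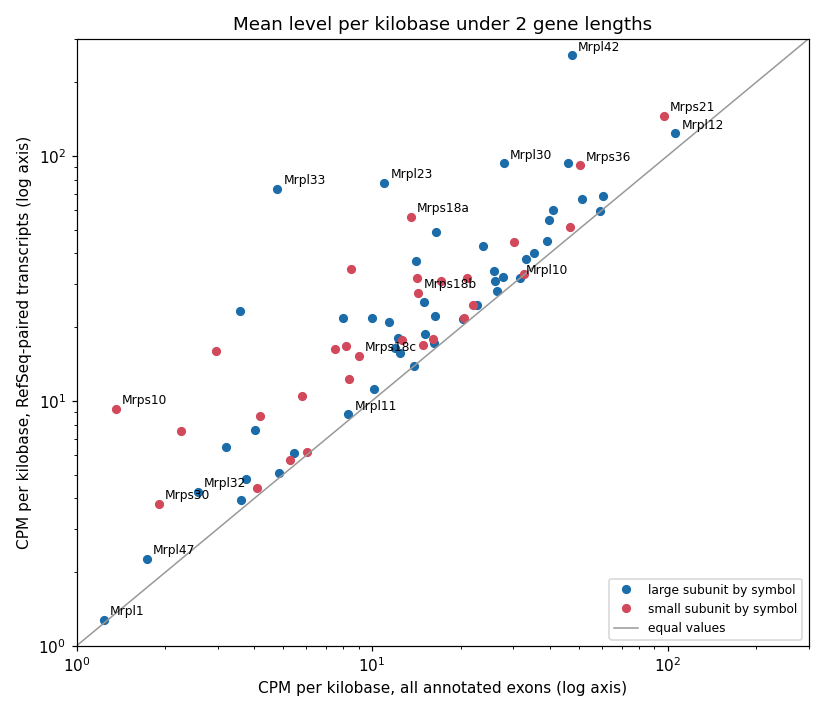
Each point is a member's mean level of 4 libraries in CPM per kilobase (log axes), by the union of annotated exons (horizontal) and by RefSeq-paired transcripts (vertical), and the line marks equal values. Mrpl12 and Mrpl1 lie near the line, while Mrpl42 moves from 47.4 to 257 and Mrps10 from 1.36 to 9.28 CPM per kb.

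The fold between the highest and the lowest member was 32.8 in CPM, 85.7 per kilobase of all exons and 201 per kilobase of RefSeq-paired exons. Between the members at the 90th and 10th percentiles it was 5.23, 13.7 and 13.1. The range between the percentiles changed little with the choice of length, unlike that between the extremes.

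The stalk base was compared within each library. Mrpl10, which holds the stalk, had 55.6, 54.7, 50.9 and 55.0 CPM and 31.7 ± 1.24 CPM per kb, below Mrpl12 in all 4 libraries. The log2 ratio per kilobase of Mrpl12 to Mrpl10 was 1.74 ± 0.06 (SD, n = 4), or 3.35-fold, with the smallest p that a two-sided exact sign-flip permutation over 4 libraries can give, 0.13 (0.156 adjusted over the 5 pairs). In the bacterial stalk several copies of the counterpart of Mrpl12 sit on a single counterpart of Mrpl10. Mrpl11, also at the stalk base, had 25.3, 27.1, 28.0 and 27.0 CPM and lay below Mrpl10 in all 4 libraries, by a log2 ratio of -1.93 ± 0.11 (exact sign-flip permutation p 0.13, adjusted 0.156). By the RefSeq-paired length the 2 ratios were 3.90-fold and 0.279-fold, so neither direction depended on the length.

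The 3 members of the Mrps18 family descend from a common bacterial protein. Mrps18c and Mrps18b belong to the small subunit and Mrps18a to the large one. Mrps18a had 50.03, 54.7, 43.9 and 50.7 CPM, Mrps18b had 27.5, 31.7, 27.5 and 32.6, and Mrps18c had 9.44, 10.1, 8.65 and 10.7. In each library Mrps18a had the most counts and Mrps18c the fewest. Per kilobase of all exons Mrps18b was 1.58-fold and Mrps18a 1.49-fold over Mrps18c (log2 0.66 ± 0.06 and 0.58 ± 0.09), each in 4 of 4 libraries with an exact sign-flip permutation p of 0.13 (adjusted 0.156). Mrps18b and Mrps18a did not differ beyond their spread (log2 0.08 ± 0.10, 3 of 4 libraries above 0, exact sign-flip permutation p 0.375). That comparison turned with the length: by RefSeq-paired transcripts Mrps18b was lower than Mrps18a by log2 -1.03 ± 0.10. Mrps18b shared 30.5% of its exon bases with Gm16279 on the opposite strand and Mrps18c shared 23.2% with Gm43511, so part of their counts could belong to those genes or be lost to them.

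Subunits were compared by symbol, so the small set held Mrps18a, Mrps30 and Mrps36. The median large-subunit member had 15.0, 15.5, 14.7 and 16.9 CPM per kb in libraries 1 to 4. The median small-subunit member had 12.7, 11.5, 11.9 and 12.7. The large-subunit median was higher in 4 of 4 libraries, by 1.27-fold (log2 0.34 ± 0.09, exact sign-flip permutation p 0.13, the smallest possible). With members placed by their subunit in the assembled ribosome the log2 ratio was 0.476 ± 0.0445. By the RefSeq-paired length it was 0.48 for the sets by symbol. The medians in CPM with no length gave a log2 ratio of 0.02 ± 0.10 (exact sign-flip permutation p 0.625). The 45 members with a bacterial counterpart had a median of 11.4 ± 0.241 CPM per kb and the 28 specific to mitochondria 15.6 ± 0.738, a log2 ratio of -0.45 ± 0.05 and lower in 4 of 4 libraries (exact sign-flip permutation p 0.13). By the RefSeq-paired length that difference was log2 -0.14 and by the longest transcript -0.08 ± 0.10 (exact sign-flip permutation p 0.375), so its size moved with the exons that were counted. Mrps18a, Mrps18b and Mrps36 were placed in neither set. In both comparisons the same genes and lengths enter in every library. The SD and p therefore measure the spread between libraries and not that between members.

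Members tied to the known landmarks of the ribosome spanned a wide range per kilobase of all exons. Around the peptidyl transferase centre, Mrpl2 at 60.3 ± 1.44 and Mrpl27 at 25.9 ± 1.95 CPM per kb lay above Mrpl16 at 7.99 ± 1.08 and Mrpl3 at 3.74 ± 0.621. At the exit tunnel, through which the new chain leaves, Mrpl22 had 16.4 ± 1.84, Mrpl24 had 11.4 ± 0.179 and Mrpl23 had 11.01 ± 0.468 CPM per kb, all above Mrpl47 at 1.73 ± 0.13. Mrpl45, which holds the exit site against the inner membrane, had 20.2 ± 0.884. In the central protuberance Mrpl18 had 39.0 ± 3.03, Mrpl38 had 23.7 ± 0.402, Mrpl46 had 15.1 ± 0.834, Mrpl40 had 11.9 ± 0.474 and Mrpl48 had 4.00 ± 0.419 CPM per kb. In the small subunit Mrps12 at the decoding centre had 22.0 ± 2.5, Mrps7 in the head had 20.6 ± 1.5 and Mrps5 at the mRNA entry had 8.38 ± 0.264. Members of the same region of the ribosome thus had levels far apart in several cases, while the tunnel proteins Mrpl23 and Mrpl24 overlapped within 1 SD.

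By the RefSeq-paired length Mrpl23 had 77.7 ± 3.3, Mrpl16 21.8 ± 2.94, Mrpl24 20.9 ± 0.33, Mrpl38 42.8 ± 0.727 and Mrpl48 7.62 ± 0.797 CPM per kb, the landmark members whose values moved by over 1.5 times. Mrpl23 and Mrpl24 no longer overlapped, while Mrpl16 stayed below Mrpl27, at 33.8 ± 2.54, and above Mrpl3, at 4.79 ± 0.795.

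Mrpl3, Mrpl44 and Mrps22 are among the members whose human counterparts are linked to mitochondrial cardiomyopathy. Mrpl3 had 20.6, 29.5, 27.3 and 22.3 CPM, with the 2 highest values in libraries 2 and 3. Mrpl44 had 44.3, 47.9, 43.3 and 47.2 CPM, and Mrps22 had 7.98, 10.4, 7.98 and 9.57 CPM. Mrps22 was therefore among the least abundant of the members. Of the members whose human counterparts are linked to other disorders of mitochondrial translation, Mrps16 had a mean of 46.1 ± 3.04, Mrps7 of 42.6 ± 3.11, Mrps2 of 36.8 ± 2.36 and Mrps34 of 29.2 ± 2.17 CPM. Mrps34 shared 77.8% of its exon bases with other genes, 63.4% with Mapk8ip3 on the opposite strand, so its count is uncertain.

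The spread between libraries was small for most members. The median CV was 6.91%, with 10th and 90th percentiles of 3.05% and 13.5%, against a median of 9.60% over all genes tested and of 8.28% over the 8765 tested genes whose mean counts lay within those of the members. A CV under 10% was found for 60 members of 76 (78.9%), against 52.3% of all genes tested and 62.4% of those within the range of counts. For 18 members the CV was below the value that counting error alone would give. A CV over 4 libraries can fall below it by sampling alone, and the share of all genes tested was not computed. The lowest CVs belonged to Mrps31 (1.6%), Mrpl24 (1.6%), Mrpl38 (1.7%), Mrps17 (2.3%) and Mrpl2 (2.4%). Mrpl38, in the central protuberance, had 61.3, 61.3, 59.2 and 59.96 CPM, a flat profile across all 4 libraries. Mrps31, specific to mitochondria, had 25.1, 24.3, 24.7 and 24.4 CPM.

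**Figure D3:**
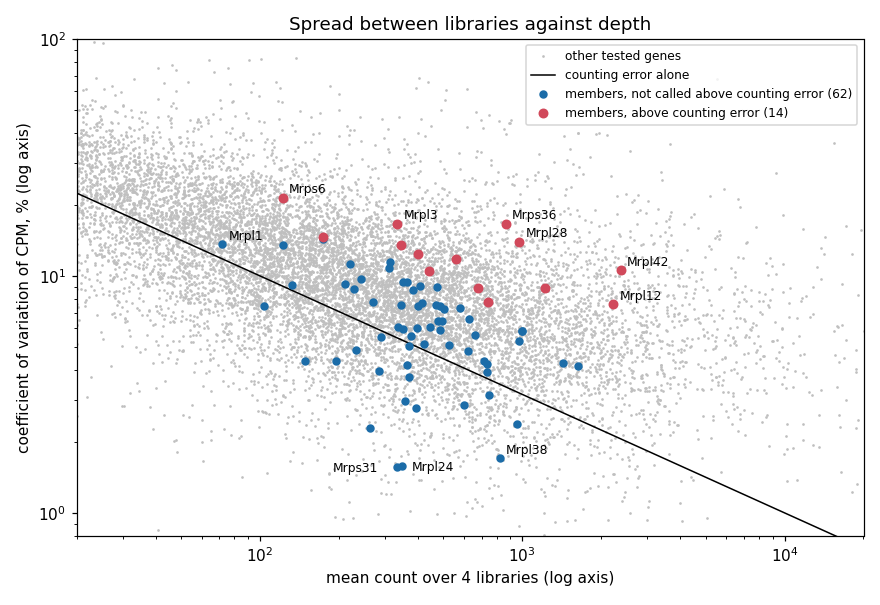
The CV of CPM over 4 libraries (%, log axis) is plotted against the mean count (log axis) for members and for the other tested genes within the axes, and the line is the CV from counting error alone. The 14 members whose counts differed by more than counting error (red) lie above the line, and Mrps31, Mrpl24 and Mrpl38 lie far below it.

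edgeR's test for a spread above that of genes of like abundance called 0 of 76 members at a Benjamini-Hochberg adjusted p under 0.05, against 55 of 12360 genes (0.445%). At an unadjusted p under 0.05 it held 3 of 76 members, Mrps36, Mrpl3 and Mrpl28, with adjusted p of 0.530, 0.817 and 0.830. About 1 in 20 genes would nominally pass that cutoff by chance, and 3 of 76 is no more than that. The share of all genes tested under that cutoff was not computed. DESeq2 marked 0 members and 129 genes in all as dispersion outliers. With libraries 1 and 4 alone the edgeR test again called 0 members, of 11 genes called in all (0.0891%). At a background of 0.445%, 0 calls among 76 genes is close to the share over all genes.

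A test against counting error alone asks less. By the Poisson dispersion test 14 of 76 members (18.4%) differed between libraries by more than counting error at an adjusted p under 0.05, against 29.9% of all genes tested and 31.2% of those within the range of the members' mean counts. With libraries 1 and 4 alone the count was 0 members, while the share of all genes tested also fell, to 2.62% (323 genes). At that share a count of 0 among 76 members says little. Without library 2 it was 7 members (9.21%), while the share of all genes tested fell to 15.3%. The 14 were Mrpl3, Mrpl9, Mrpl12, Mrpl16, Mrpl18, Mrpl28, Mrpl30, Mrpl32, Mrpl41, Mrpl42, Mrpl48, Mrps6, Mrps18a and Mrps36. Of these, Mrpl9, Mrpl30 and Mrpl41 were named here because of this call. The lowest library of the 14 was library 2 for 7 members, library 3 for 6 and library 1 for Mrpl3, and it was library 4 for 0.

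The members with library 2 lowest included Mrpl42, at 177, 149.6, 178 and 194 CPM, and Mrps36, at 68.6, 48.3, 71.1 and 68.8. The other 3 libraries of Mrps36 lay close together, and the fold between its highest and lowest library was 1.47. Mrpl32, a conserved zinc-binding protein whose maturation by a protease is known to be needed for assembly of the ribosome, had 14.02, 10.1, 13.0 and 14.1 CPM. In each of these 3 library 2 was lowest and library 3 lay nearer to libraries 1 and 4.

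The members with library 3 lowest included Mrpl28, at 76.9, 80.2, 57.8 and 69.7 CPM, and Mrps6, at 8.67, 10.6, 6.27 and 9.90. Mrps6 had the largest CV of all members, 21.3%, and a fold of 1.68 between its highest and lowest library, on 66 to 152 counts. Mrps18a and Mrpl18 had the same order at the ends, with library 2 highest and library 3 lowest. Mrpl3 had the next largest CV (16.6%), with library 2 highest at 29.5 CPM and library 1 lowest at 20.6. The other large CVs were those of Mrps36 (16.6%), Mrpl32 (14.5%) and Mrps30 (14.3%). The libraries that went against their sex label thus stood at opposite ends for Mrpl28, Mrps6, Mrps18a and Mrpl18. They did so in the reverse order, with library 3 highest and library 2 lowest, for Mrps36, Mrpl30 and Mrpl48. Libraries 2 and 3 were both below libraries 1 and 4 for Mrpl16 (29.7, 22.5, 22.7 and 26.4 CPM), Mrpl32 and Mrpl41, and both above them for Mrpl3. The part of the label mismatch in the spread was not tested.

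**Figure D4:**
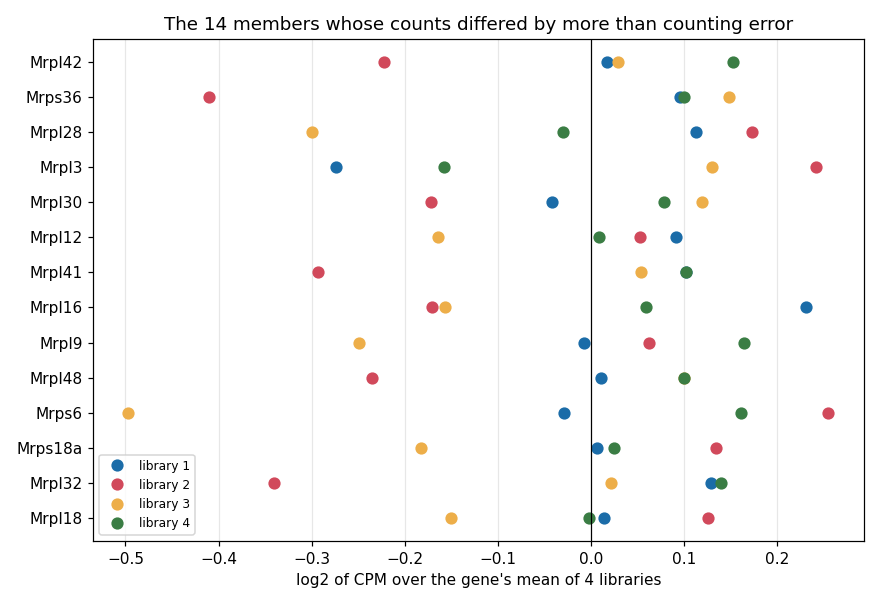
For the 14 members that differed by more than counting error, the log2 of the CPM in each library over the gene's mean of 4 libraries is plotted, ordered by the excess over counting error with the largest at the top. Library 2 is the lowest point for 7 genes and library 3 for 6, and library 4 covers library 3 for Mrpl48 and library 1 for Mrpl41, whose values are equal to 3 digits.

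Over all 76 members the lowest library was library 3 for 37, library 2 for 24, library 1 for 10 and library 4 for 5. Over all genes tested, libraries 3, 2, 1 and 4 were lowest for 33.4%, 30.7%, 19.8% and 16.1%. After scaling by trimmed mean of M-values (TMM) the members' counts became 31, 23, 12 and 10 in the same order, and the shares of all genes 28.8%, 31.1%, 20.4% and 19.7%, so part of that order moved with the scaling. Library 3 was also the shallowest and had the highest level of Myh6, 56973 CPM against 46666 to 48453 in the others. Of the remaining cardiomyocyte markers it was highest for Myl2 (7459 CPM, next 7254) and barely for Tnnt2 (10348 CPM, next 10329). It was not highest for Actc1 (9497 CPM against 9560 in library 1) or Tnni3 (5317 against 5422 in library 1). Between pairs of libraries, the median absolute log2 difference of the members ran from 0.08 (libraries 1 and 3, and 1 and 4) to 0.14 (libraries 2 and 3), and from 0.09 to 0.15 for tested genes in their range of counts. A difference over 1.5-fold was found for 1 member between libraries 2 and 3 and for 1 between libraries 3 and 4. It was Mrps6 in both cases, which rests on 66 counts in library 3. The share of all tested genes over that fold was not computed.

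Several members sit close to other genes, which bears on both their counts and their promoters. The members were spread over 17 chromosomes, with 10 on chromosome 11 and 8 on chromosome 17. For 18 members over 10% of exon bases were shared with another gene, up to 88.0% for Mrpl53, and 44 members shared none. The libraries did not keep the strand. Without the 18 members the log2 ratio of the subunit medians was 0.71 in place of 0.34. Annotated pseudogenes carry the names of Mrpl23, Mrpl48 and Mrps36, whose counts may lack reads that match those copies.

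A protein-coding neighbour on the opposite strand, starting head to head within 1000 bases (or overlapping by up to 500), was found for 25 of 76 members (32.9%), against 14.1% of 11953 tested protein-coding genes. Mrpl46 and Mrps11, 1 from each subunit, face each other on chromosome 7, with 15.1 ± 0.834 and 8.16 ± 0.795 CPM per kb. Mrpl36 faces Ndufs6, an accessory subunit of complex I, with 12.4 against 537 CPM per kb. Mrpl49 faces Fau, a source of a cytosolic ribosomal protein, with 16.3 against 163. Mrps12 faces Sars2, the mitochondrial seryl-tRNA synthetase, with 22.0 against 4.32. Partners that share a start region thus differed in level, and in most pairs the member was the higher per kilobase. The neighbour was the higher only for Mrpl32, Mrpl36, Mrpl49, Mrps27 and Mrps11, the last facing the member Mrpl46. Mrpl36, Mrpl49 and their partners were chosen as examples after their values were seen, as were the distance limits.

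RefSeq held a promoter window of 300 bases (250 before the start and 50 after) for 67 members. It was searched on both strands for 8 motifs, whose matches may overlap. The letters of NRF1 (GCGCANGCG), a regulator of nuclear genes for mitochondria, were found in 22.4% of the 67, against 13.9% of the 9186 tested genes with a window and 6.47% of all 27025 windows. Those of the ETS family (CCGGAAG), which includes NRF2/GABPA, were found in 34.3%, 18.0% and 9.12%, and those of YY1 (ATGGCGG) in 19.4%, 8.40% and 4.19%. At least 1 of these 3 was found for 40 of 67 members (59.7%), against 34.3% of tested genes.

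The SP1 letters (GGGCGG) were found in 49.3% of members and 65.2% of tested genes, the CCAAT box (CCAAT) in 40.3% and 38.4%, and the E-box (CACGTG) in 7.46% and 10.4%. TATAAA was found in 5.97% and 7.01%, and CAAGGTCA, the letters bound by ERR receptors, in 2.99% (2 members, Mrps21 among them) and 1.03%. SP1 was thus less frequent among members than among tested genes. The shares of the E-box, TATAAA and ERR rest on only 5, 4 and 2 members, too few to tell from those of tested genes. All windows together held these 5 in 35.9%, 37.9%, 7.24%, 14.2% and 1.53%. A match is a description of letters, and no binding was measured. Among the sequences printed at the start, Mrpl12 and Mrps21 hold the NRF1 letters and Mrpl34 the ETS letters, while the windows of Mrpl2 and Mrpl42 hold none of the 3.

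Other genes of the pathway were taken from 5 lists. The 7 further proteins of the ribosome whose symbols do not match the rule summed to 248.7 ± 7.14 CPM, led by Dap3, a GTP-binding protein of the small subunit, at 61.7 ± 2.58. Aurkaip1 followed at 49.3 ± 2.91, Ptcd3 at 45.9 ± 3.08 and Ict1 at 39.9 ± 1.99 CPM. By the edgeR test 0 of 7 were called and by the Poisson test also 0 of 7, against backgrounds of 0.445% and 29.9%.

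The 23 genes for assembly of the ribosome and modification of its RNA summed to 380 ± 24.8 CPM. Of these 0 were called by edgeR and 6 by the Poisson test, near the 29.9% of all genes tested. They were led by Dhx30, an RNA helicase, at 65.2 ± 2.93 CPM, Rbfa, an assembly factor of the small subunit, at 31.2 ± 4.78, and the RNA methyltransferases Nsun4 at 28.1 ± 1.57 and Mrm1 at 22.9 ± 2.91. Rbfa had 31.7, 35.5, 24.4 and 33.2 CPM, again with library 2 highest and library 3 lowest. The 12 translation factors summed to 647 ± 12.9 CPM, with 0 and 3 called, the latter also near 29.9%. Tufm, the elongation factor that brings aminoacyl-tRNA to the ribosome, had 291, 279, 283 and 294 CPM, and per kilobase of all exons its 135 exceeded the 106 of Mrpl12. Gfm1, the translocation factor, had 142 ± 7.47, Gfm2, which acts in ribosome recycling, 59.5 ± 1.68 and Taco1, which promotes translation of the Cox1 mRNA, 42.3 ± 3.99 CPM.

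The 3 genes for stability of mitochondrial mRNA and insertion of new proteins summed to 256 ± 13.4 CPM. Of these 0 were called by edgeR and 2 by the Poisson test, against 29.9% of all genes tested. Lrpprc, which stabilizes mitochondrial mRNAs, had 130.2, 136, 158 and 144 CPM and its partner Slirp 3.61, 2.23, 3.80 and 4.49. Oxa1l, which inserts new chains into the inner membrane, had 111 ± 4.75 CPM. The 4 genes for transcription of mitochondrial DNA summed to 107 ± 5.04 CPM, with 0 and 2 called. Lists of 3 and 4 genes are too short to set against that share. Polrmt, the RNA polymerase, had 48.3 ± 4.35, Tfb2m 29.1 ± 4.56, Tfam 16.7 ± 1.17 and Tefm 12.8 ± 0.268 CPM. Over the 5 lists 0 genes reached an unadjusted p under 0.05 in the edgeR test.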

How the data were processed

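Poly(A)+ RNA from 4 mouse heart libraries was analysed from the deposited files, which hold whole-number counts of reads per gene that were not normalized. Per the labels' protocols the libraries were single-end and did not keep the strand. The submitters' processing notes name the mm10 build, TopHat, TopHat2 2.0.10, Bowtie2, HTSeq, DESeq and edgeR. Which annotation and counting mode were used is not given in the sources used here. A file holds 23420 genes and 5 rows that name no gene, which held 9.16 ± 0.145% of listed reads and were left out.

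CPM used all gene counts. Depth was 10523709 to 15359296 counts per library, and a count of 0 allows up to 3 counts, for counting error only. Tests covered the whole table of genes averaging 1 CPM or more and ran in R 4.3.3: edgeR 4.0.16 with an intercept only, TMM scaling and a robust prior (quasi-dispersion over its trend against F on 3 and 7.43 degrees of freedom), and a Poisson dispersion test (chi-square on 3 degrees of freedom), each with Benjamini-Hochberg adjustment, and DESeq2 1.42.0 as an alternative. The scripts were tested on simulated data. Ratios within a library were tested by exact two-sided sign-flip permutation, with 0.5 added to counts for pairs. Exon lengths came from GENCODE M21 (GRCm38, which is mm10), which matched all 76 members, and promoters from RefSeq (GRCm38.p6).

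The text names the 8 highest and 8 lowest members per kilobase, the 5 largest and 5 smallest CVs, members called by edgeR, those in compared pairs, those with landmark or disorder roles, and the 4 highest genes of each list. Others are named for a count or call given beside them. Members and lists were chosen with earlier results of these data known. The RefSeq-paired length, the motifs, the head-to-head limits, the genes in the members' range of counts and the comparison of pairs of libraries were added after the data were seen.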

Additional observations from a re-analysis of the deposited data

Results flagged for a closer look

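Of 84 sets of 4 values examined (the members and their summed levels and ratios), 7 had a library that stood apart from the other 3 by Dixon's criterion for 4 samples. About 1 in 20 sets, here 4.2, would do so by chance. Library 2 was the lowest for Mrpl1 (4.24 CPM), Mrpl41 (24.1 CPM) and Mrps36 (48.3 CPM), and the highest for Mrps25 (30.5 CPM). Library 3 was the lowest for Mrpl20 (14.4 CPM), Mrpl21 (22.3 CPM) and Mrps23 (66.5 CPM). Of the 7, Mrpl41 and Mrps36 also differed by more than counting error. Libraries 2 and 3 are those whose Xist and Ddx3y counts went against the male label, and the part of this in these values was not tested. Mrps25 shared 69.8% of its exon bases with Nr2c2 on the opposite strand.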

How the results depend on the processing

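The number of members called by edgeR was 0 under each alternative run. The number above counting error ran from 7 to 16 when each library was left out in turn. It was 7 without library 2, where the share of all genes also fell, from 29.9% to 15.3%. It was 16 or 21.1% without library 4, where the share of all genes was 27.3%. With libraries 1 and 4 alone, a test on fewer samples, it was 0 and the share of all genes 2.62%. The summed level was 3419 CPM with Rn45s, a ribosomal RNA precursor at 11.9 to 14.1% of counts, left out of the total. The ratio of conserved to mitochondria-specific members reversed to log2 0.81 when sums replaced medians. Sums set 45 genes against 28, but the number of genes alone does not make up the whole of that ratio. Mrps18b over Mrps18a reversed to log2 -0.74 without length and to -1.03 with RefSeq-paired exons. The other 82 values kept their direction or stayed within 1.5 times of a count. Among them the subunit ratio came to log2 0.02 without length (exact permutation p 0.625) and 0.71 without members that share exons, and the ratio of conserved to mitochondria-specific members to -0.26 by means of log2 values, -0.12 without length, -0.08 by the longest transcript (exact permutation p 0.375) and -0.14 with RefSeq-paired exons. No paired analysis was possible because the libraries form 1 group. Counting error limits the least abundant members most, with a CV of 12.0% from counting alone for Mrpl1.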
